A study of Mus musculus with 8 samples.

Results

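The ligands, receptors and SMAD-side genes of transforming growth factor-β (TGFβ) were followed in cultured mouse liver progenitors labelled as control or as mutant for the Hippo kinase genes *Lats1* and *Lats2*. The 9 genes were taken from the deposited table by symbol, out of 23467 genes with a unique symbol. They were the ligand genes *Tgfb1*, *Tgfb2* and *Tgfb3*, the receptor genes *Tgfbr1*, *Tgfbr2* and *Tgfbr3*, the signal transducer *Smad3*, and the feedback genes *Smad7* and *Skil*. Hepatoblasts were isolated at E14.5 from livers of mice on a mixed B6;129 background and plated on collagen (iHBs), differentiated to hepatocytes over 5 days in oncostatin M at 12.5 ng per ml (iHPs), or differentiated to biliary epithelial cells on Matrigel for 14 days (iBECs). Control cells were wild type. The cells labelled mutant, named L1L2_Alb, were Lats1-/-;Lats2f/fl;Alb-cre, a design that removes *Lats1* from every cell of the embryo and the floxed *Lats2* only where the albumin promoter drives Cre, in cells of the hepatoblast lineage. RNA of neither gene was lower over these libraries (values below), so every genotype is given as labelled. RPKM counts reads over the whole gene, so it does not show whether part of a gene was deleted. The study itself reported reduced LATS1/2 expression and raised YAP target genes in L1L2_Alb hepatoblast cultures. RNA sequencing gave 8 libraries, with 1 control library in each stage, 1 L1L2_Alb library of iHBs and 2 each of iHPs and iBECs. The labels do not say if libraries sharing a condition were made from separate embryos or cultures, so that each spread may be technical.

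TGFβ ligands are secreted in a latent complex and, once released, bring a type II and a type I receptor kinase together on the cell surface. The type I receptor phosphorylates SMAD2 and SMAD3, which enter the nucleus with SMAD4 and switch on genes that include the pathway's own brakes, among them *Smad7* and *Skil*. In the fetal liver TGFβ signalling around the portal vein favours the biliary over the hepatocyte fate, and in the adult liver it is known for driving fibrosis.

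Values are in RPKM (reads per kilobase of gene per unit of library size), so levels can be set beside each other between genes. Depth was 18436865 to 33229075 reads per library. Fitted over the stages, neither *Lats1* nor *Lats2* RNA was below the control level in libraries labelled L1L2_Alb, and of those 5 *Lats1* was below its control only in iHP replicate 2. *Lats2* was at 9.23 against 19.7 RPKM in iHBs, 10.1 against 17.7 and 27.6 RPKM in iHPs, and 6.90 against 10.9 and 12.4 RPKM in iBECs. The 8 hepatocyte and 6 biliary markers reported were detected, and 4 of 7 endothelial markers, *Cdh5*, *Tek*, *Stab2* and *Tie1*, stayed under 1 RPKM in every library. Of the 3 others, *Lyve1* was at 22.1 against 18.5 and 17.2 RPKM in iBECs. *Pecam1* was at 4.01 against 0.867 RPKM in iHBs, and *Kdr* was above its control in all 5 L1L2_Alb libraries. None of these 3 was called for genotype. Macrophage RNA was abundant, with *Lyz2* from 448 to 2178 RPKM, and so was mesenchymal RNA, with *Col1a1* from 288 to 1467 RPKM. In bulk RNA, fewer cells of a type and less RNA per cell cannot be told apart.

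Of the 9 genes, *Tgfb2*, *Tgfbr3* and *Smad7* were called higher in the libraries labelled L1L2_Alb and none was called lower, by limma on log2(RPKM + 1), stage being a blocking term. Over all 13421 genes tested, 9.57% passed the same test at an adjusted p under 0.05, 6.2% higher and 3.37% lower. *Smad3* and *Tgfbr2* were also above the control of their stage in all 5 libraries but missed the threshold, and *Tgfbr1* was below it in all 5. Such uniform directions were common, since 22.9% of all genes were above their control in 5 of 5 libraries and 10.1% below. *Tgfb1*, *Tgfb3* and *Skil* went different ways in different libraries.

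**Figure D1:**
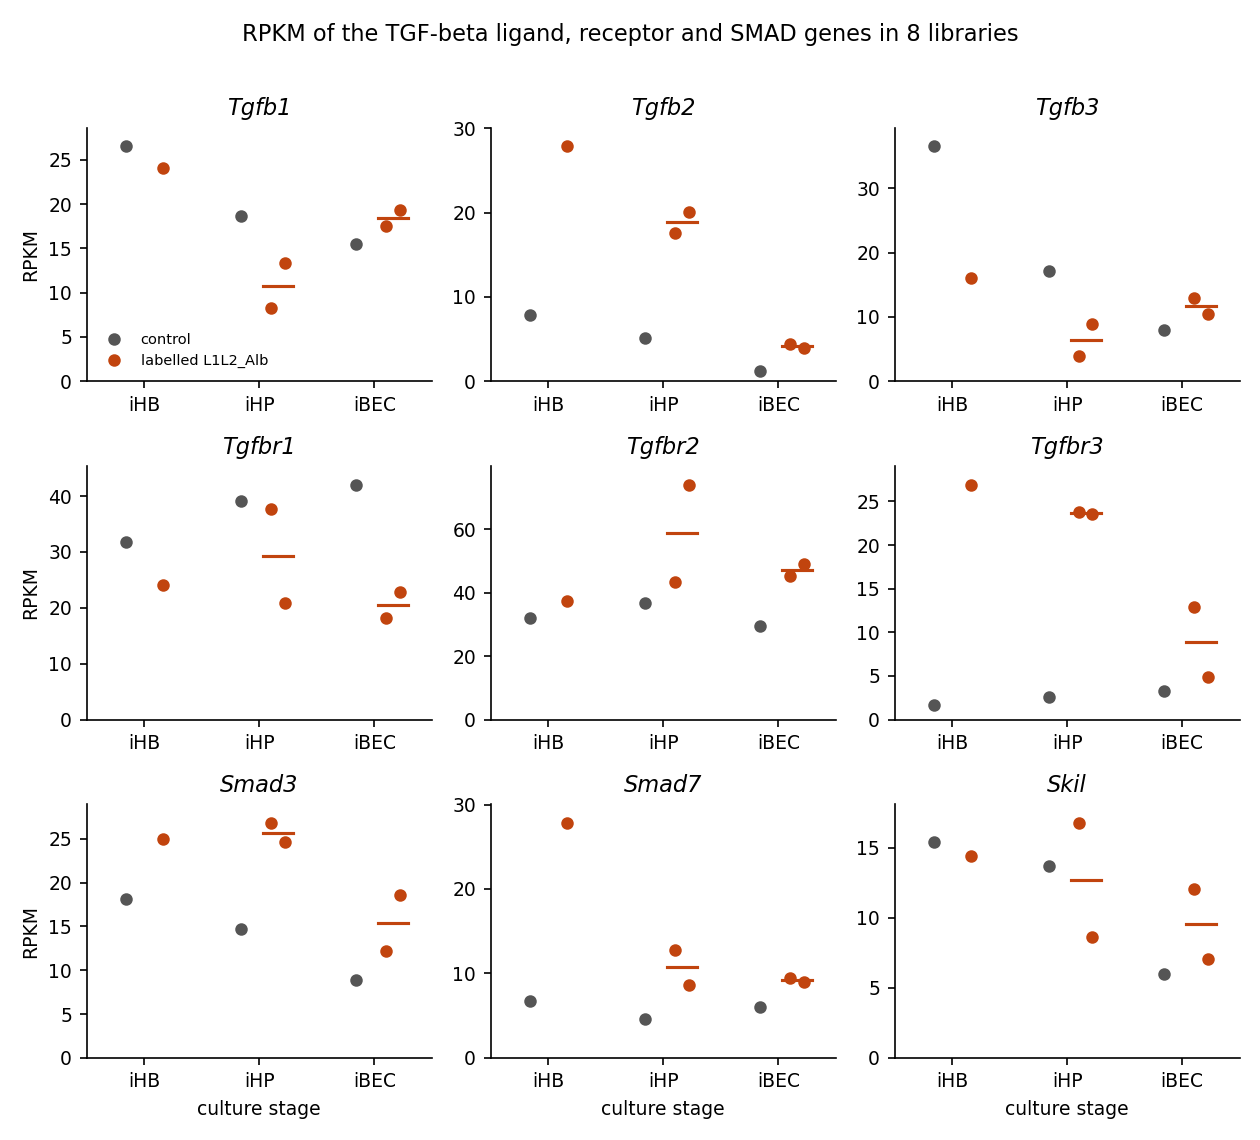
RPKM (y axis, from 0) of each of the 9 genes in the 8 libraries by culture stage (x axis). Grey points are the control library of a stage, orange points the libraries labelled L1L2_Alb, and a line is the mean of a pair. *Tgfb2* and *Tgfbr3* sat above the control of the same stage in every orange point, while *Tgfb1* and *Tgfb3* sat below it in iHBs and iHPs and above it in iBECs.

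Among the ligands, *Tgfb2* stood at 7.83 RPKM in control iHBs and 27.9 RPKM in L1L2_Alb iHBs. In iHPs it was 5.07 RPKM in the control and 17.6 and 20.1 RPKM in the L1L2_Alb libraries. In iBECs it was 1.18 RPKM in the control and 4.39 and 3.93 RPKM in the L1L2_Alb libraries. Each L1L2_Alb library was thus above its own control by a similar RPKM ratio, from 3.32 in iBEC replicate 2 to 3.96 in iHP replicate 2, but across stages the groups overlapped, as control iHBs and iHPs exceeded L1L2_Alb iBECs. The fitted log2 fold change on log2(RPKM + 1) was 1.54 (standard error, SE, 0.187), 2.90-fold, with an adjusted p of 0.00373 from limma. The call was lost when the iHP stage was left out (adjusted p = 0.0604) and when limma's sharing of variance between genes was switched off (adjusted p = 0.058), a setting chosen after seeing the data in which only 38 genes of the whole table passed. *Tgfb2* rested on 186 reads in control iBECs, its lowest count.

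The bases before the start of *Tgfb2* are shown beside those of *Tgfb1*, because these 2 ligand genes behaved differently. Both sequences are from RefSeq on the build GRCm38.p6 and cover 250 bases up to the base before the start, chr1:186705990-186706239 on the minus strand for *Tgfb2* and chr7:25686752-25687001 on the plus strand for *Tgfb1*. Capitals mark the letters TATAAA, the core of a TATA box.

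Tgfb2 promoter: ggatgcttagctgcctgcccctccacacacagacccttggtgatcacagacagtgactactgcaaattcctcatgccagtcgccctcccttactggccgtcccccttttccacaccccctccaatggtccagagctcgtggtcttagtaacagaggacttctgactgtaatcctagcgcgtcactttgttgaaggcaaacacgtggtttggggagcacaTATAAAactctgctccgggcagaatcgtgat

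Tgfb1 promoter: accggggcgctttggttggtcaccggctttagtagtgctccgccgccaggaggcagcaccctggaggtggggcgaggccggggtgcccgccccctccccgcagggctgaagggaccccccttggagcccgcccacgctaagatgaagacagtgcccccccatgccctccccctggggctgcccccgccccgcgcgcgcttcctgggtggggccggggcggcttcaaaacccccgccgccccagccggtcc

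The letters TATAAA lay 31 bases before the *Tgfb2* start, and 12.4% of 32851 promoter windows of this length held them on either strand. Windows were found for 5 of the 9 genes, *Tgfb1*, *Tgfb2*, *Tgfbr1*, *Tgfbr2* and *Smad3*, with 2 starts for *Tgfbr1*, and no other of these 6 windows held TATAAA. The GC content was 53.6% for *Tgfb2* and 75.2% for *Tgfb1*, against a median of 52.4% over all windows. None of the 6 held the TEAD motif GGAATG (12.6% of all windows on either strand), the SMAD motif GTCTAGAC (0.167%), the AP-1 motif TGANTCA (6.75%) or the cyclic AMP response motif TGACGTCA (1.55%). These are matches of letters only, in windows that end before the start. By chromatin immunoprecipitation in iHPs over-expressing a YAP mutant, the study reported YAP at a *Tgfb2* site downstream of the start. That site lies outside these windows, so the absence of a match here does not bear on it.

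*Tgfb3*, the ligand with the highest level in control iHBs, was at 36.5 RPKM there and at 16.0 RPKM in L1L2_Alb iHBs. In iHPs it was 17.2 RPKM in the control and 3.99 and 8.94 RPKM in the L1L2_Alb libraries. In iBECs the order was the other way round, with 7.91 RPKM in the control and 12.9 and 10.5 RPKM in the L1L2_Alb libraries. The L1L2_Alb libraries were therefore below the control in 3 of 5 cases and above it in 2. The excess of *Tgfb3* in iBECs was 0.51 on the log2 scale, where the median of all genes was itself 0.25. Upper-quartile scaling lowered that excess to 0.32 and quantile normalization to 0.28. Across the stages *Tgfb3* gave a log2 fold change of -0.62 (SE 0.386, limma adjusted p = 0.356). The moderated F test for a difference in genotype effect between stages gave an unadjusted limma p of 0.0541 for *Tgfb3* and an adjusted p of 0.941, and it called 0 of 13421 genes, with 733 at an unadjusted p under 0.05 and a smallest adjusted p of 0.122.

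*Tgfb1*, a ligand made by many blood and mesenchymal cells, was at 26.5 RPKM in control and 24.1 RPKM in L1L2_Alb iHBs. In iHPs it was 18.6 RPKM in the control and 8.26 and 13.3 RPKM in the L1L2_Alb libraries, and in iBECs 15.5 RPKM against 17.6 and 19.3 RPKM. Fitted over the stages, the difference was -0.23 on the log2 scale (SE 0.243, limma adjusted p = 0.612). The small excess in iBECs, 0.24 on the log2 scale, was no larger than the median of all genes there, 0.25. Upper-quartile scaling lowered that median to 0.07 and the *Tgfb1* difference to 0.04, and quantile normalization turned the difference to -0.02.

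With *Tgfb2* higher and the other ligands not, the make-up of the ligand RNA differed. *Tgfb2* held 11.1% of the summed RPKM of the 3 ligand genes in control iHBs and 41.0% in L1L2_Alb iHBs. In iHPs it held 12.4% in the control and 59.0% and 47.4% in the L1L2_Alb libraries. In iBECs its share was 4.82% in the control and 12.6% and 11.7% in the L1L2_Alb libraries. *Tgfb2* was thus the ligand of the highest level in the 3 L1L2_Alb libraries of iHBs and iHPs and of the lowest level in every control library, whereas in iBECs *Tgfb1* led in both genotypes. These shares add nothing to the test, since they rest on the same values.

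Markers of other cell types moved in part along with *Tgfb1* and *Tgfb3*. The mean log2(RPKM + 1) of 11 mesenchymal or stellate markers was 5.15 in control and 3.93 in L1L2_Alb iHBs, 4.55 against 3.43 and 3.77 in iHPs, and 4.94 against 5.57 and 4.83 in iBECs. *Reln* stayed under 1 RPKM throughout, and the summed RPKM of the list ran from 2272 to 3566 in controls and from 1752 to 3748 in L1L2_Alb libraries. Of the 8 of these markers that could be tested, 1 was called, *Vim*, and it was higher. Within the list, the fibroblast matrix gene *Dcn* was at 88.9 against 5.28 RPKM in iHBs, at 42.6 against 3.11 and 7.10 RPKM in iHPs, and at 115 against 309 and 71.4 RPKM in iBECs. Sums of megakaryocyte and erythroid markers were also below the control in iHBs and iHPs. The 5 megakaryocyte markers summed to 169 against 84.2 RPKM in iHBs, to 152 against 35.6 and 73.0 RPKM in iHPs, and to 56.5 against 60.6 and 207 RPKM in iBECs, and none of the 5 passed. The 5 erythroid markers summed to 107 against 22.0 RPKM in iHBs, to 69.5 against 6.68 and 15.5 RPKM in iHPs, and to 2.55 against 1.57 and 3.11 RPKM in iBECs, and 1 of the 2 tested, *Hbb-b1*, was lower. The 7 macrophage markers summed to 1109 to 2331 RPKM in controls and 784 to 3003 RPKM in L1L2_Alb libraries, and 0 of the 6 tested passed.

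Some other markers ran with *Tgfb2*, being above the control of their stage in all 5 libraries labelled L1L2_Alb, as were 22.9% of all genes. *Vim*, an intermediate filament gene of mesenchymal cells, was at 886 against 1999 RPKM in iHBs, at 551 against 1249 and 1705 RPKM in iHPs, and at 510 against 912 and 1455 RPKM in iBECs (log2 fold change 1.26, limma adjusted p = 0.0167). Of the 6 biliary markers reported here, the keratin genes *Krt7* (2.17, limma adjusted p = 0.00422) and *Krt19* (1.31, limma adjusted p = 0.0205) were higher and *Spp1* lower. The rest of that list was not called. *Cldn4* was above its control in 5 of 5 libraries, *Epcam* in 4 and *Sox9* in only 1. The summed biliary level, which *Spp1* takes part in, ran from 2589 to 23475 RPKM in controls and from 2482 to 11819 RPKM in L1L2_Alb libraries. The part of cell make-up in the values of the ligand genes, *Tgfb2* included, was not tested.

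**Figure D2:**
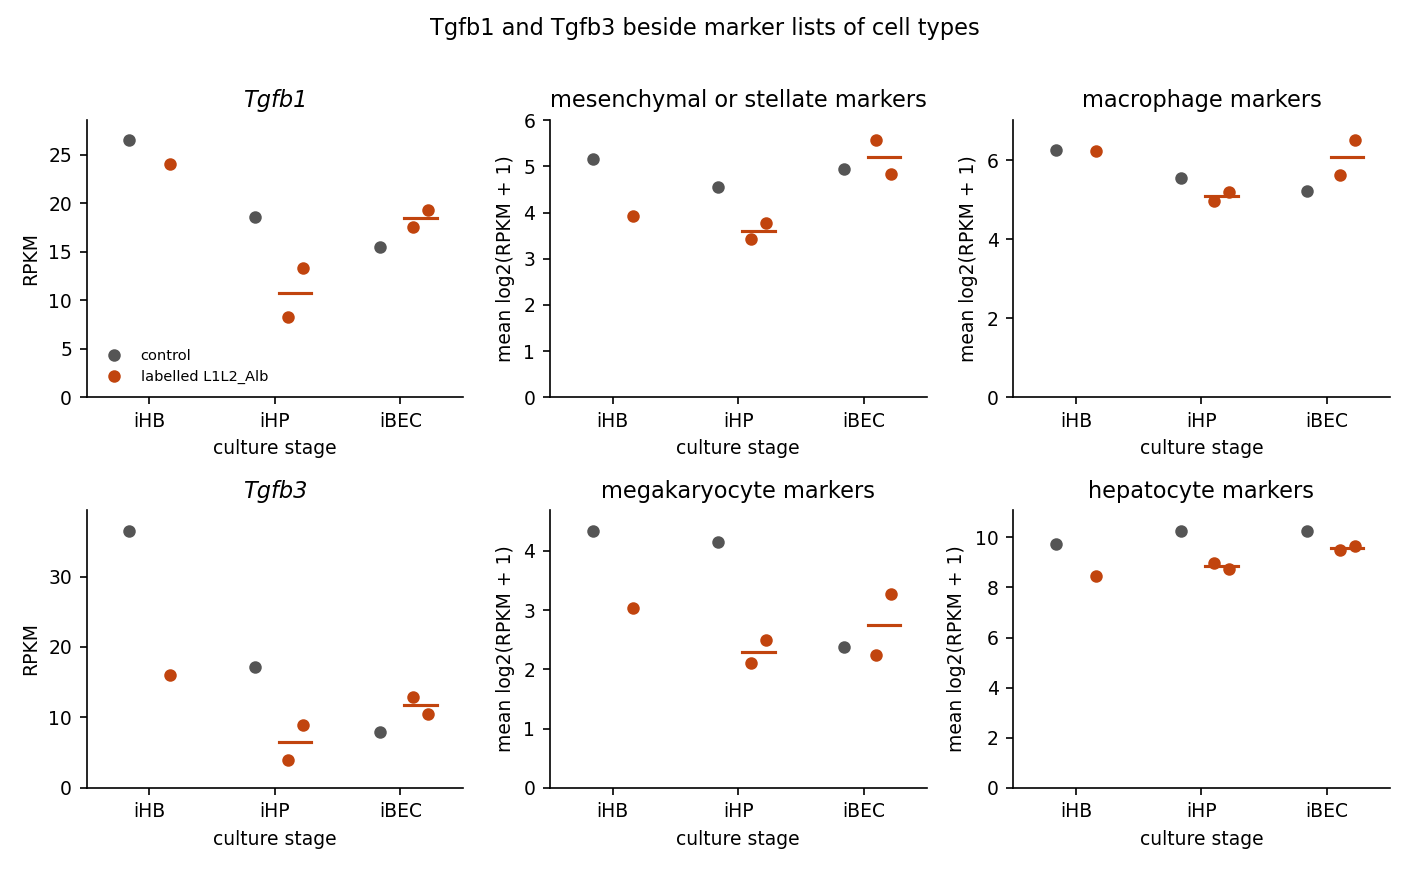
*Tgfb1* and *Tgfb3* (RPKM, left) beside the mean log2(RPKM + 1) of marker lists of 4 cell types (other panels) by culture stage. Grey points are controls, orange points are libraries labelled L1L2_Alb and a line is the mean of a pair. *Tgfb3* and the mean of the mesenchymal markers were both below the control in iHBs and iHPs. The mean of the hepatocyte markers was below it in all 3 stages. Single markers went the other way. *Vim* was above the control in all 3 stages, *Apoa1* in iHBs and iHPs, and *Afp* in iHBs and iBECs.

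Among the receptors, *Tgfbr3* had the widest change of the 9 genes. It encodes betaglycan, a co-receptor without kinase activity that presents ligand, TGFβ2 in particular, to the type II receptor. It was at 1.61 RPKM in control and 26.9 RPKM in L1L2_Alb iHBs. In iHPs it was 2.56 RPKM in the control and 23.8 and 23.6 RPKM in the L1L2_Alb libraries, and in iBECs 3.32 RPKM against 12.9 and 4.85 RPKM. All 5 L1L2_Alb libraries lay above all 3 controls, as they did for 9.18% of all genes. The L1L2_Alb pair was nearly equal in iHPs, whereas iBEC replicate 2 came close to its control. The log2 fold change was 2.34 (SE 0.444), 5.05-fold, with an adjusted p of 0.0175 from limma. It missed the threshold without the iHB stage (adjusted p = 0.0941), without the iHP stage (0.184), with no filter on low values (0.0609) and without sharing of variance (0.147). On the log2 scale the iHB change was 3.42, the mean iHP change 2.79 and the mean iBEC change 1.06, and the F test of a difference between stages gave *Tgfbr3* an unadjusted limma p of 0.0473, adjusted p = 0.899.

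1 of the 2 signalling receptors had the highest RPKM of the 9 genes in every library except control iHBs, and neither receptor passed the test. *Tgfbr2*, the type II kinase that binds ligand, was at 32.2 against 37.4 RPKM in iHBs, at 36.6 against 43.5 and 74.0 RPKM in iHPs, and at 29.4 against 45.4 and 49.0 RPKM in iBECs. All 5 L1L2_Alb libraries were above all 3 controls, as for 9.18% of all genes, by a small margin in iHBs. The log2 fold change was 0.53 (SE 0.210, limma adjusted p = 0.157). *Tgfbr1*, the type I kinase that phosphorylates the SMADs, was at 31.8 against 24.0 RPKM in iHBs, at 39.2 against 37.7 and 20.8 RPKM in iHPs, and at 42.0 against 18.2 and 22.9 RPKM in iBECs. It was lower in 5 of 5 libraries, though iHP replicate 1 hardly differed from its control, and the log2 fold change was -0.64 (SE 0.238, limma adjusted p = 0.131).

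On the SMAD side, *Smad7*, which blocks the type I receptor and is itself induced by the pathway, was at 6.78 RPKM in control and 27.8 RPKM in L1L2_Alb iHBs. In iHPs it was 4.63 RPKM in the control and 12.8 and 8.65 RPKM in the L1L2_Alb libraries, and in iBECs 5.98 RPKM against 9.50 and 8.95 RPKM. All 5 L1L2_Alb libraries exceeded all 3 controls, as they did for 9.18% of all genes, with iHBs far above the rest. The log2 fold change was 1.09 (SE 0.263), 2.13-fold, with an adjusted p of 0.0379 from limma. This call was the least firm of the 3, holding under 5 of 15 alternatives, with adjusted p between 0.0347 and 0.184.

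*Smad3*, the transducer, was at 18.1 against 25.0 RPKM in iHBs, at 14.7 against 26.8 and 24.6 RPKM in iHPs, and at 8.93 against 12.2 and 18.6 RPKM in iBECs. The groups overlapped across stages, since control iHBs exceeded L1L2_Alb iBEC replicate 1. Its log2 fold change was 0.65 (SE 0.190) with an adjusted p of 0.0686 from limma. *Skil*, which encodes the SMAD co-repressor SnoN, was at 15.4 against 14.4 RPKM in iHBs, at 13.7 against 16.7 and 8.59 RPKM in iHPs, and at 5.96 against 12.1 and 7.06 RPKM in iBECs. The L1L2_Alb pair of iHPs lay on either side of the control, and the log2 fold change was 0.12 (SE 0.284, limma adjusted p = 0.840).

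**Figure D3:**
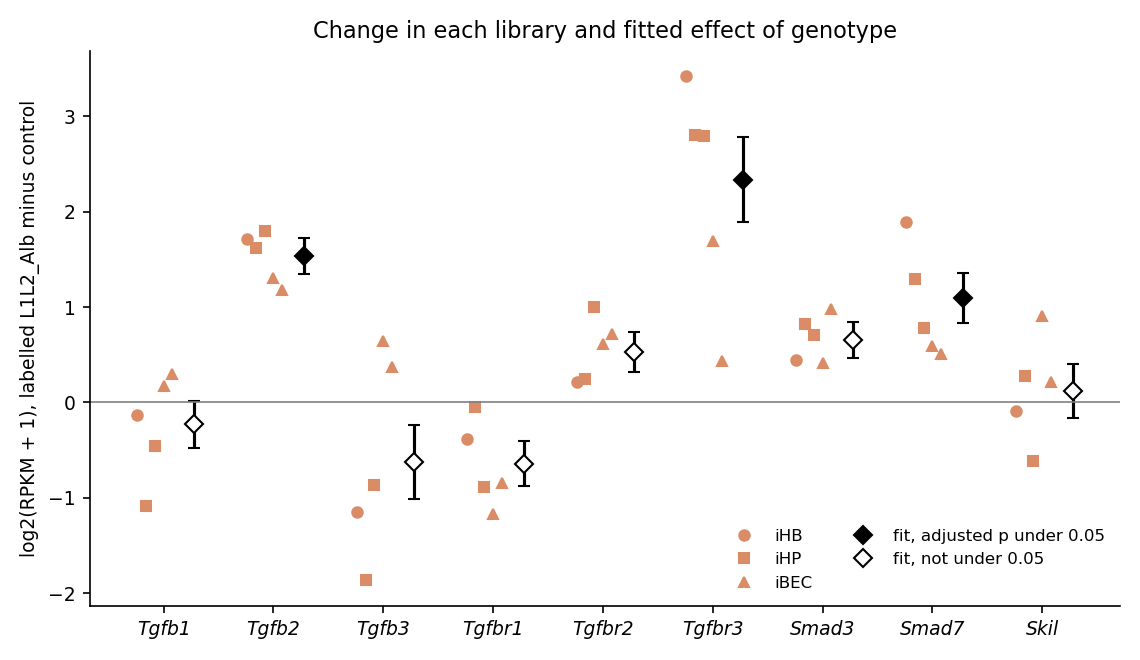
Difference in log2(RPKM + 1) between each library labelled L1L2_Alb and the control of its stage (orange; circles iHBs, squares iHPs, triangles iBECs), and the fitted effect across stages with its standard error (diamonds; filled where the adjusted p from limma was under 0.05). The filled diamonds are *Tgfb2* at 1.54, *Tgfbr3* at 2.34 and *Smad7* at 1.09.

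To ask which genes followed *Tgfb2*, the genotype effect on the ratio of each gene to *Tgfb2* was tested in the same 8 libraries. Most genes of the table, 93.7%, differed from *Tgfb2* by this test, 93.1% lower and 0.551% higher, so a difference from it was the rule. *Smad7* was not called different, at -0.44 relative to *Tgfb2* on the log2 scale (SE 0.305, limma adjusted p = 0.173), in any of the 15 alternatives. *Tgfbr3* was 0.80 above *Tgfb2* (SE 0.377, limma adjusted p = 0.0559) and passed in 5 of 15 alternatives, the lowest being 0.00341 without the iBEC stage. Neither result shows equal effects.

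The other 6 genes were below *Tgfb2*, with differences of -0.88 for *Smad3*, -1.01 for *Tgfbr2*, -1.42 for *Skil*, -1.77 for *Tgfb1*, -2.16 for *Tgfb3* and -2.18 for *Tgfbr1*. Their adjusted p from limma ran from 6.37e-05 for *Tgfbr1* to 0.00809 for *Smad3*. Every ratio contains the same *Tgfb2* values. Without sharing of variance between genes the adjusted p ran from 0.00967 for *Tgfbr1* to 0.0344 for *Skil*, all still past the threshold. The *Smad3* difference was lost without the iHB stage (adjusted p = 0.0576) or the iHP stage (0.0553).

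In level across the 8 libraries, rather than in size of change, *Smad3* was the closest of the 8 to *Tgfb2*. Its Pearson r with *Tgfb2* on log2(RPKM + 1) was 0.92 and Spearman's rho 0.79, rank 311 of 13420 genes, and r was 0.86 without the 2 libraries farthest from the *Tgfb2* median, L1L2_Alb iHBs and control iBECs. *Tgfbr3* followed with r = 0.73, *Smad7* with 0.70, *Skil* with 0.59 and *Tgfbr2* with 0.45, while *Tgfb3* at -0.05, *Tgfb1* at -0.14 and *Tgfbr1* at -0.30 did not track it. Without the same 2 libraries r was 0.43 for *Smad7*, 0.20 for *Skil*, -0.68 for *Tgfb1*, -0.49 for *Tgfb3* and 0.17 for *Tgfbr1*, so these values rest in part on those 2 libraries. The 8 libraries share their genotype and stage structure, so any gene that was higher in L1L2_Alb and lower in iBECs would score highly, and these values are a description. The genes of the table most like *Tgfb2* were *Myzap* (r = 0.992), *Gm11696* (0.989), *Arhgap1* (0.987), *Gm16793* (0.987) and *Rab3ip* (0.986).

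*Tgfb2* also differed between stages, and none of the other 8 genes passed that test. Over both genotypes it was lower in iBECs than in iHBs by a log2 difference of -2.30 (SE 0.233, limma adjusted p = 0.00182), where 5.72% of all genes passed and 2.78% were lower. It was lower in iBECs than in iHPs by a log2 difference of -1.79 (SE 0.207, limma adjusted p = 0.00725), where 4.12% passed and 1.67% were lower. The second call was lost when the libraries of a pair were averaged (adjusted p = 0.0595). Between iHPs and iHBs 0 genes passed limma (0%), with 1158 at an unadjusted p under 0.05 and a smallest adjusted p of 0.0741, and *Tgfb2* differed by -0.51 (adjusted p = 0.594).

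The order of *Tgfb2* levels was L1L2_Alb iHBs, L1L2_Alb iHPs, control iHBs, control iHPs, L1L2_Alb iBECs and control iBECs, each neighbour differing by more than the pooled SD of the pairs, 0.11 on the log2 scale. For *Tgfbr1* and *Tgfbr2* no neighbours in the order did so, their pooled SDs being 0.44 and 0.38. These SDs come only from the L1L2_Alb pairs of iHPs and iBECs, as the other conditions had 1 library each. The order of levels was not tested. *Tgfb3* and *Skil* were not called between stages, and their control values were 36.5 RPKM in iHBs and 7.91 RPKM in iBECs for *Tgfb3* and 15.4 and 5.96 RPKM for *Skil*, with 1 library each. Between the only replicated conditions, *Tgfb2* was lower in L1L2_Alb iBECs than in L1L2_Alb iHPs by a log2 difference of -1.94 (SE 0.290, limma adjusted p = 0.0208), where 3.67% of genes passed and 0.507% were lower. That call was lost when any 1 of the 4 libraries was left out, with adjusted p from 0.0775 to 0.235. *Tgfbr3* differed by -1.45 (SE 0.434, limma adjusted p = 0.125). Leaving out an iBEC library moved the *Tgfbr3* difference to -2.08 (without replicate 1) or -0.83 (without replicate 2), neither of them called.

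The remaining genes of the pathway were taken from 7 lists of 101 genes, 85 of which could be tested. Of these, 7 were called higher with the L1L2_Alb label and 1 was called lower, beside 6.2% and 3.37% of all genes. Their median log2 fold change was 0.07, against 0.06 over all genes. In the list of the latent complex and its activation, 2 of 16 were called higher and none was called lower. Its fitted changes were 8 positive and 8 negative, from -1.41 to 1.41, with a median of -0.01. *Itgb6* encodes a subunit of an integrin that releases some of the latent TGFβ ligands. It was at 4.76 against 14.1 RPKM in iHBs and at 3.28 against 12.6 and 5.46 RPKM in iHPs. In iBECs it was at 0.522 against 3.85 and 3.99 RPKM, and the log2 fold change was 1.41 (limma adjusted p = 0.0193). *Ltbp3*, a latent TGFβ binding protein, had a log2 fold change of 0.61 (limma adjusted p = 0.0458), and this call held under only 4 of 15 alternatives.

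Of the 9 other ligands tested, *Bmp4*, a bone morphogenetic protein, was higher, at 4.56 against 12.7 RPKM in iHBs, 2.74 against 4.35 and 7.23 RPKM in iHPs, and 1.15 against 3.62 and 5.64 RPKM in iBECs (log2 fold change 1.15, limma adjusted p = 0.0257). Of the 8 secreted antagonists reported here, *Nbl1*, a binder of bone morphogenetic proteins, was called higher with a log2 fold change of 1.10 (limma adjusted p = 0.0104). None was called lower, although 4 of the 8 fitted changes were negative, down to -1.98, and 4 positive. The calls of *Itgb6* and *Bmp4* were each lost under 6 of 15 alternatives, up to adjusted p of 0.126 and 0.129.

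Further receptors (0 of 9), SMADs (0 of 5) and intracellular regulators (0 of 16) held no gene past limma's threshold. Those of the highest level had log2 fold changes of 0.45 for *Acvr1*, -0.29 for *Acvr1b*, 0.09 for *Smad4*, -0.14 for *Smad1*, 0.60 for *Fkbp1a* and 0.58 for *Dab2*. The sign for *Smad4*, the partner of SMAD3 in the nucleus, turned to -0.02 under upper-quartile scaling and quantile normalization.

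TGFβ target genes split both ways, 3 of 22 called higher and 1 lower, beside 6.2% and 3.37% of all genes. The list median was -0.36, and 14 of the 22 fitted changes were negative. Split by stage, the targets had medians of -0.38 (iHBs), -0.56 (iHPs) and 0.23 (iBECs). For all genes these were -0.086, -0.0073 and 0.25, so the targets lay lower in iHBs and iHPs but hardly in iBECs. *Col1a1*, a target that is also among the mesenchymal markers above, was below its control in 4 of 5 libraries. The part of cell make-up in the list median was not tested. In all 5 libraries 4 of the 22 were above their control and 5 below, beside 22.9% and 10.1% of all genes. *Cdkn2b*, a cell cycle inhibitor induced by TGFβ, was at 28.7 against 115 RPKM in iHBs, at 13.0 against 50.2 and 84.0 RPKM in iHPs, and at 17.9 against 35.1 and 57.5 RPKM in iBECs (log2 fold change 1.82, limma adjusted p = 0.0081). *Cdkn1a*, which encodes the inhibitor p21 and is also a p53 target, was higher with a log2 fold change of 1.03 (limma adjusted p = 0.0117), and *Ctgf*, a target of TGFβ and of YAP, with 1.73 (limma adjusted p = 0.00796). *Fn1*, which encodes the matrix protein fibronectin, was lower, at 2146 against 839 RPKM in iHBs, at 2859 against 754 and 587 RPKM in iHPs, and at 3113 against 1373 and 1489 RPKM in iBECs (log2 fold change -1.54, limma adjusted p = 0.01). *Fn1* is also made in bulk by hepatocytes, and 5 of 8 hepatocyte markers were called lower in the same libraries and none was called higher. The part of that in the *Fn1* value was not tested.

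**Figure D4:**
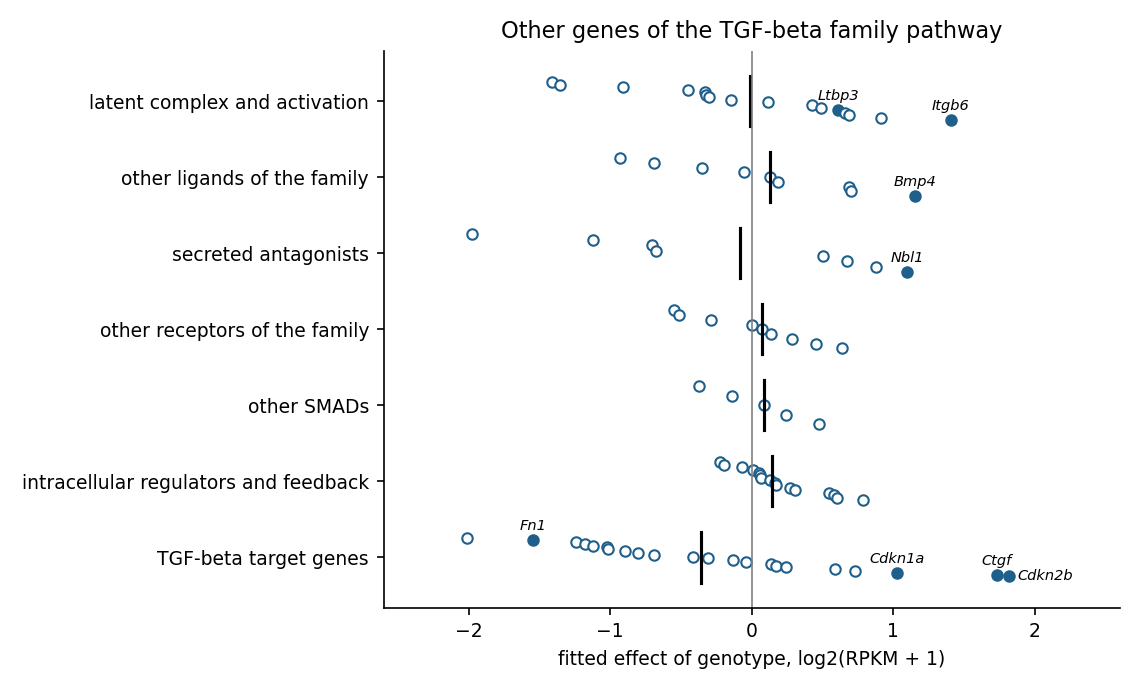
Fitted effect of genotype on log2(RPKM + 1) (x axis) for each tested gene of 7 lists of the TGFβ family pathway (y axis). Filled and named points had an adjusted p from limma under 0.05 and the black line is the list's median, which was -0.36 for the target genes and 0.13 for the other ligands.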

How the data were processed

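RNA was sequenced in 8 TruSeq libraries on Illumina equipment, and the submitters' processing notes name Bowtie 0.12.2 and the build mm8. The authors deposited 1 table of values per gene and library, in RPKM with no scaling between libraries. The unit and the depth were inferred from short genes, whose values changed in whole steps. Whole reads could be recovered for 7 of the 9 genes (tolerance 0.01), and no count model was run. The table held 23471 entries, and 4 with a repeated symbol were left out. The 9 genes all passed the filter.

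Values were used as log2(RPKM + 1), which understates changes of low genes, where the mean over the 8 libraries reached 1 RPKM. The fits were made in R 4.3.3 by limma 3.58.1, with lmFit and a trended eBayes. Stage and genotype were terms in all 8 libraries, and the test between stages of L1L2_Alb and the F test used the 6 conditions. Every adjusted p is two-sided, by Benjamini-Hochberg over all genes tested. With 1 control library per stage no single stage was tested. In a chi-square of recovered reads, the pairs differed by 118 (iHPs) and 116 (iBECs) per degree of freedom over 7 genes, more than counting noise.

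The 9 genes and all lists were chosen with earlier results of these data known. The other genes named are those past the threshold in each pathway list (at most 4), otherwise its 2 of the highest level, the 5 most like *Tgfb2*, the targeted genes, and markers of the cell types. Promoters are RefSeq windows on GRCm38.p6, used only for sequence. The results of 1 further gene of a pathway list and 1 of a marker list are not reported here, and the counts leave them out. The procedure was tested on simulated data. Tables and figures were made with Python 3.11.15, numpy 2.4.6, pandas 2.3.3 and matplotlib 3.10.9. The alternatives were a pseudocount of 0.1, upper-quartile scaling (percentile 75), quantile normalization, no filter, a mean of at least 5 RPKM, no trend, averaged pairs, leaving out a library or a stage, the replicate block, and no sharing of variance, which was added after seeing the data.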

Additional observations from a re-analysis of the deposited data

Results flagged for a closer look

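In some genes every L1L2_Alb library of iBECs moved one way from its control and every such library of another stage the other way, on log2(RPKM + 1). The change of *Tgfb3* in iBECs minus that in iHBs was 1.65 and minus that in iHPs 1.87. For *Tgfb1* these differences were 0.37 and 1.00, and quantile normalization turned its change in iBECs negative. *Skil* (0.65) and *Smad4* (0.24) differed in this way between iBECs and iHBs. The median of all genes was itself 0.25 in iBECs and -0.086 in iHBs, a gap wider than that of *Smad4*. Under quantile normalization, *Skil* changed by 0.33 in iBECs and -0.0022 in iHBs. These pairs of stages were not tested one by one. The F test over the 3 stages gave adjusted p from limma of 0.941 for *Tgfb3* and above 0.99 for *Tgfb1*, *Skil* and *Smad4*.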

How the results depend on the processing

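*Tgfb2* kept its direction in all 15 alternatives, with log2 fold changes of 1.44 to 1.80, and its call in 13. *Tgfbr3* (1.93 to 3.06) kept its call in 11 and *Smad7* (0.79 to 1.40) in 5. Of 509 combinations of a gene's result with a setting, 435 kept direction and side of the threshold, 63 lost the threshold, 6 gained it and 5 turned. Those that turned were small, *Tgfb1* at 0.078 without the iHP stage, *Skil* at -0.031 without L1L2_Alb iBEC replicate 1 (up to 0.28 without L1L2_Alb iHP replicate 2) and at -0.13 without the iBEC stage, and *Smad4* at -0.022 under upper-quartile scaling and -0.021 under quantile normalization; the cause was not tested.

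The 1284 genes called for genotype became 686 with no filter, 38 without sharing of variance, 326 without the iHB stage, 132 without the iHP stage, 1449 without the iBEC stage (the cause was not tested), and 792 to 1214 with 1 library left out. They split into 832 higher and 452 lower, and into 612 and 575 under upper-quartile scaling, 688 and 616 under quantile normalization and 545 and 904 without iBECs. Called relative to *Tgfb2* were 12574 genes, and 19187 with no filter (more genes tested).

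For iHPs against iHBs the 0 calls became 2 under upper-quartile scaling, 4 with a mean of at least 5 RPKM, and 0 to 1 with a library left out. For iBECs against iHBs the 768 became 492 with no filter and 493 to 1747 with a library left out, the highest without L1L2_Alb iHP replicate 2. For iBECs against iHPs the 553 became 211 with no filter, 62 with averaged pairs and 155 to 982 with a library left out. For L1L2_Alb iBECs against L1L2_Alb iHPs the 492 became 0 with no filter and 0 to 91 with a library left out, the lone library being assumed to vary like the pair. With the replicate block they became 911, and *Tgfbr3* was called (limma adjusted p = 0.0449). The labels give the replicate numbers no meaning, and the difference between replicates 1 and 2 had r = -0.02 between the stages over 13421 genes, so the samples share only a number. A comparison within a stage has no control replicate, which limits every stage value, and values resting on few reads, such as *Tgfb2* in control iBECs, are the least precise. The averaged pairs left no spread for the F test, which could not be fitted there.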
